A study of Rattus norvegicus with 6 samples.

Results

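Of 884 probes measured in rat hypothalamus, 50 differed at least 2-fold between a hypohydrated sample and the untreated euhydrated control while staying within 2-fold of that control after 2 days and after 30 days of heat acclimation. They were chosen from quantile-normalized intensities among the 663 probes whose mean over the 6 samples exceeded the 25th percentile of probe means. Of the 50, 17 were higher in the hypohydrated sample, a direction in which 19.8% of 661 comparable kept probes differed at least 2-fold, and 33 were lower, a direction with 17.7%. These differences, and the differences under 2-fold with heat, chose the probes and are given as a description only.

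The study crossed hydration with heat in 6 groups of hypothalamus from rats, with 1 deposited sample each: untreated euhydrated controls, short heat acclimation (2 days), long heat acclimation (30 days), hypohydration alone, and each length of heat together with hypohydration. Hypohydration was a 10% loss of body weight by water deprivation. The labels give no strain, sex or age, and some describe rats both before and during heat, so each sample is taken as its named stage. Hypohydration alone and the control are called unheated, because their labels name no heat. The series text counts 9 arrays for each hydration state and the table holds 3 columns for each, so columns may be averages of arrays. How many animals or pools stand behind a column is unknown.

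The hypothalamus senses the osmolality of the blood and drives thirst and vasopressin release when water is short. It also holds the neurons that sense and set body temperature, and heat acclimation lowers the temperature at which heat loss begins. The study superimposed hypohydration on heat acclimation, so that both regulations were engaged in the same animals. The rule separates probes that differed at least 2-fold with water loss alone from those that also differed at least 2-fold with heat.

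The probes carry identifiers with the prefix R or RG, and none (0 of 884) could be found in RefSeq's list of rat genes. No gene, pathway, cell type, genome position or sequence is therefore given, the 7 gene lists drawn up for this tissue could not be counted, and the tissue could not be checked against its markers. Among the higher probes 11 of 17 had the prefix R (64.7%), and among the lower probes 17 of 33 (51.5%), against 389 of the 663 kept probes (58.7%). The chosen probes had a median mean normalized intensity of 0.549 (higher) and 0.538 (lower), below the 0.641 of all kept probes.

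With 1 sample a group there was no replicate check, no SD and no p-value, and the number of arrays limits the precision. Whether any difference exceeds the variation between animals is therefore unknown. In a bulk tissue sample, fewer cells of a type and less RNA per cell cannot be told apart. Deposited values also differed in spread: the SD of log2 intensity over all probes was 0.66 in the unheated hypohydrated sample and 0.99 in the 30-day hypohydrated sample, against 1.35 to 2.14 in the other samples. The unheated and 30-day hypohydrated samples were the most alike pair (Spearman correlation 0.84 across 884 probes), and both 2-day samples stood apart from the rest. The 2-day samples correlated at 0.67 with each other, the 2-day euhydrated sample at 0.09 to 0.42 and the 2-day hypohydrated sample at 0.24 to 0.29 with the other 4. The part of these sample-wide features in the results below was not tested.

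The probes higher with hypohydration had low to middling levels in all euhydrated samples. Their median normalized intensity was 0.354 in the control, 0.449 in the 2-day and 0.473 in the 30-day euhydrated sample, and 0.829 in the unheated hypohydrated sample. In the heated hypohydrated samples, the median was 0.776 with 30 days of heat and 0.473 with 2 days of heat. These samples were not in the rule's fold limits, but they entered its normalization and its filter on the mean. The 30-day hypohydrated sample thus lay near the unheated hypohydrated one, and the 2-day hypohydrated sample lay at the level of the euhydrated samples.

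The probes lower with hypohydration showed the same layout in the other direction. Their median normalized intensity was 0.761 in the control, 0.618 at 2 days and 0.639 at 30 days, and 0.259 in the unheated hypohydrated sample. It was 0.342 in the 30-day hypohydrated sample and 0.658 in the 2-day hypohydrated sample. Values under 0.143, the 10th percentile of normalized values, were set to that floor, which held for 3 of the 33 in the unheated hypohydrated sample and 6 in the 30-day hypohydrated sample.

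**Figure D1:**
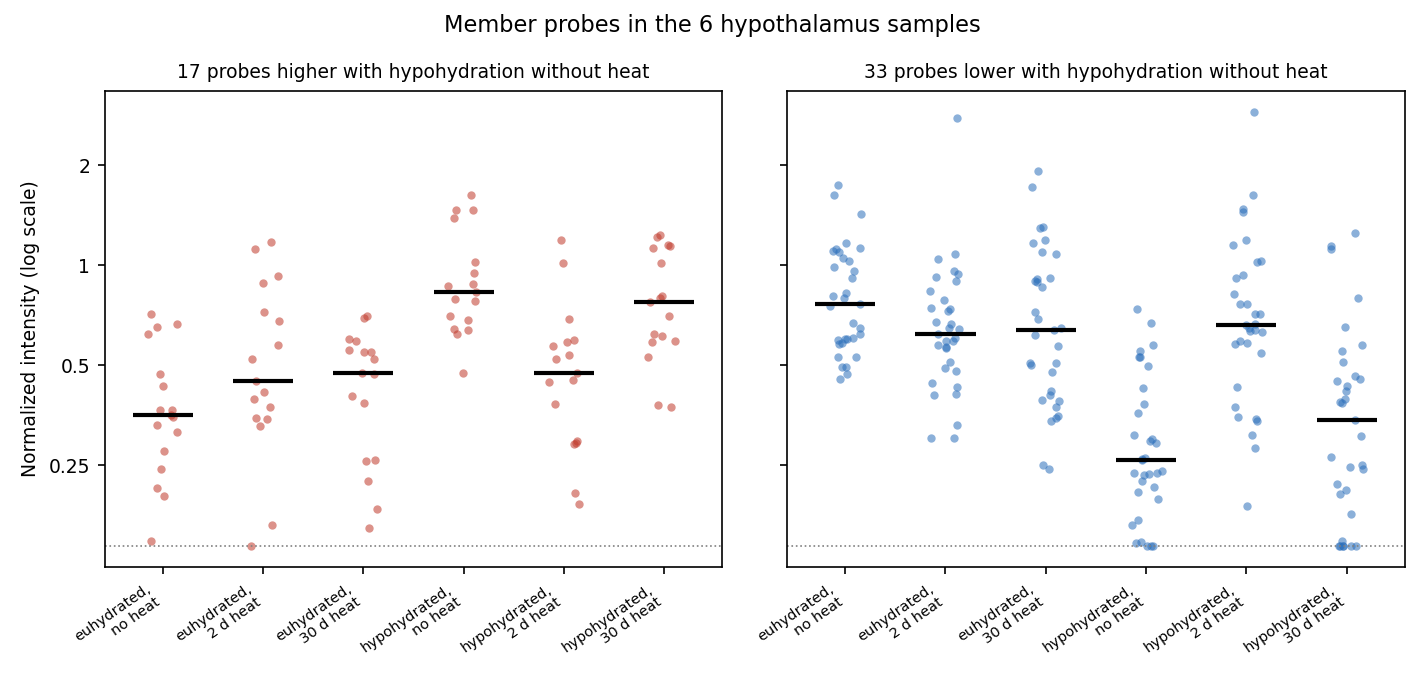
Normalized intensity (log scale) of the 17 higher and 33 lower probes in each of the 6 samples. Points are probes, bars are medians over probes, and the dotted line is the floor of 0.143. The unheated and 30-day hypohydrated medians (0.829 and 0.776 for higher probes, 0.259 and 0.342 for lower probes) lie apart from those of the other 4 samples.

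The direction of the lower probes depended on the scale. In the deposited values, without normalization between samples, the unheated hypohydrated sample exceeded the control at least 2-fold at all 17 higher probes. Of the 33 lower probes 4 were at least 2-fold lower there, 20 were lower by less, and 9 were higher. Of the 663 kept probes 33.6% were at least 2-fold higher on that scale and 4.07% at least 2-fold lower. The median no-heat difference of all kept probes was 0.42 log2 units on the deposited scale, and that of the lower probes was -0.46. Quantile normalization, which gives every sample the same distribution, removes such an overall shift and also the differences in spread given above. The part of each in these counts was not tested. With median scaling the median over all kept probes was -0.37. There 5 of the 17 were at least 2-fold higher (all kept probes 18.4%) and 20 of the 33 at least 2-fold lower (all kept probes 25.3%). All 50 kept their direction. Applied afresh to the deposited values, the rule chose 29 higher and 2 lower probes, of which 11 and 2 are among the 50. With median scaling it chose 5 and 30, of which 4 and 13 are among the 50.

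**Figure D2:**
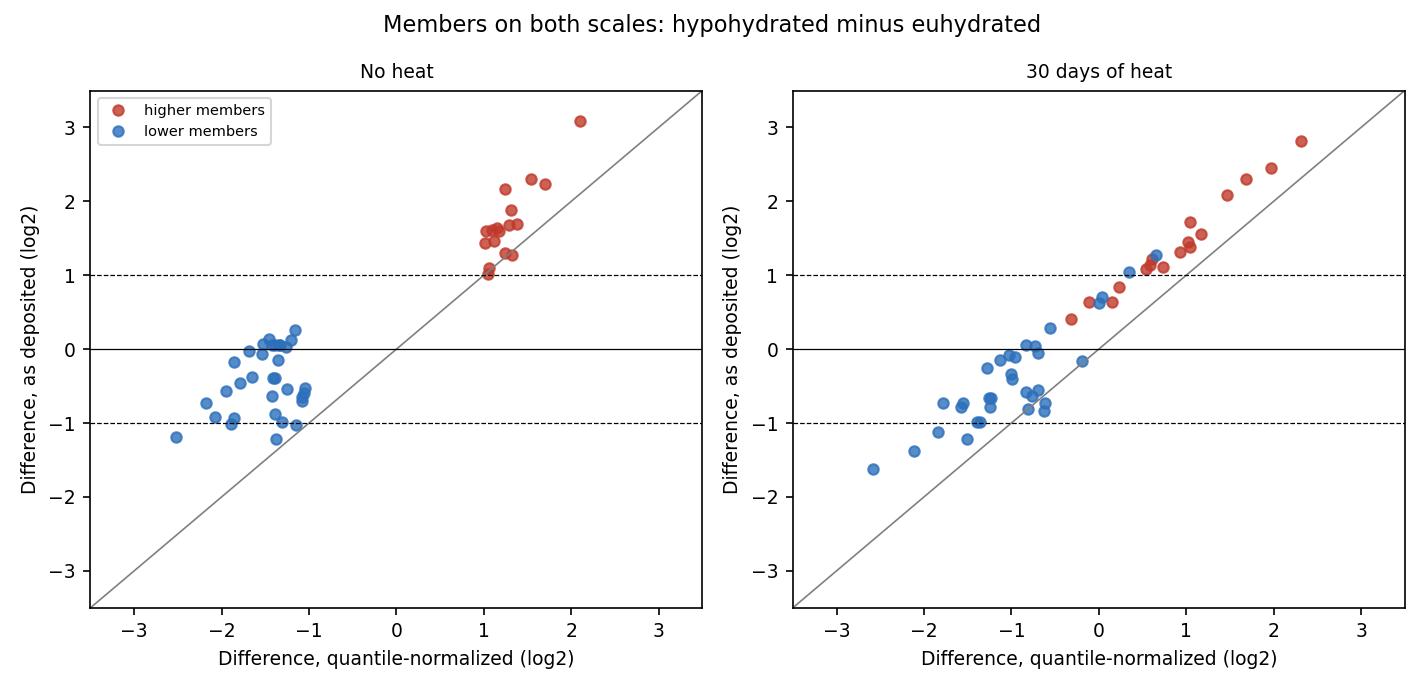
Log2 difference of hypohydrated minus euhydrated sample in the 50 probes, with quantile-normalized values on the horizontal axis and deposited values on the vertical axis, without heat (left) and at 30 days of heat (right). The grey line marks equal values and the dashed lines 2-fold. All 17 higher probes stay above 2-fold without heat on the deposited scale, and 9 of the 33 lower probes cross 0.

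The first question was whether the hypohydration difference recurred at 30 days of heat, in samples compared with their own euhydrated partner. Of the 17 higher probes, 8 had at least 2-fold more signal in the 30-day hypohydrated than in the 30-day euhydrated sample (47.1%), and 0 were at least 2-fold lower. Over all 661 comparable kept probes the share at least 2-fold higher was 17.9%. The sign was the same as without heat in 15 of the 17, and their median difference was 0.93 log2 units, against -0.02 over all kept probes. Of the 663 kept probes, 325 were higher and 335 lower in this comparison. Of the 33 lower probes, 16 were at least 2-fold lower (48.5%, against 17.9% of all kept probes) and 0 were at least 2-fold higher. Here 29 of 33 had the same sign, and the median was -0.99 log2 units.

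This comparison shares no sample with the no-heat comparison. It is not independent of the rule, whose normalization and filter on the mean used both 30-day samples. The rule had also bounded the 30-day euhydrated sample to within 2-fold of the control. The kept probes as a whole were not bounded in this way, so the shares above are a description and not a test. The unheated and 30-day hypohydrated samples were also the most alike pair over all 884 probes (Spearman correlation 0.84). The part of the rule and of this likeness in these counts was not tested. On the deposited scale 13 of the 17 higher probes exceeded their 30-day partner at least 2-fold, and 4 of the 33 lower probes were at least 2-fold lower, with 7 of the 33 higher, 2 of them at least 2-fold. On that scale 29.7% of all kept probes were at least 2-fold higher at 30 days and 7.39% lower. The median of all kept probes at 30 days was 0.43 log2 units on that scale. With median scaling, 5 of the 17 were at least 2-fold higher (all kept probes 15.1%) and 20 of the 33 at least 2-fold lower (all kept probes 25.6%).

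At 2 days of heat few of the chosen probes differed again in the same direction. Of the 17 higher probes, 1 was at least 2-fold higher in the 2-day hypohydrated than in the 2-day euhydrated sample (5.88%, against 15.7% of 658 kept probes), and 2 were at least 2-fold lower. Of the 33 lower probes, 2 were at least 2-fold lower (6.06%, against 12%), and 3 were at least 2-fold higher. The sign was the same as without heat in 8 of the 17 and 13 of the 33, where 322 of the 663 kept probes were higher and 330 lower. The median difference was -0.18 log2 units for the 17 higher and 0.10 for the 33 lower probes. On the deposited scale 3 of the 17 and 5 of the 33 were past 2-fold in the no-heat direction, and 3 and 7 in the opposite one, where 22.4% of comparable kept probes were at least 2-fold higher and 16.5% lower. With median scaling these counts were 3 and 6, and 4 and 6, where the shares were 21.2% and 17.7%. The difference between the heat stages was not tested.

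**Figure D3:**
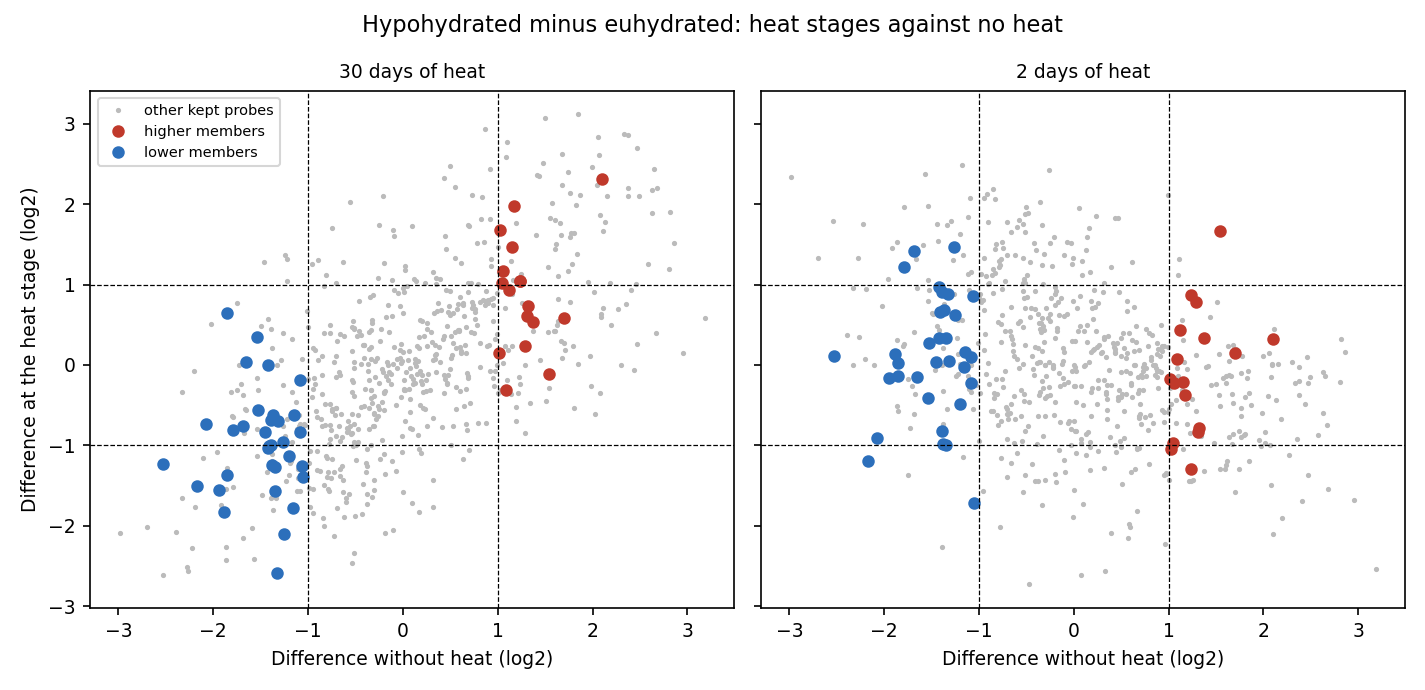
Log2 difference of hypohydrated minus euhydrated sample at 30 days (left) and 2 days of heat (right), against the difference without heat. Red and blue points are the 17 higher and 33 lower probes, grey points the other kept probes, and dashed lines mark 2-fold. At 30 days 15 red points lie above 0 and 29 blue points below it, and at 2 days 8 red points lie above 0 and 13 blue points below it. Of all 663 kept probes, 325 lie above 0 and 335 below it at 30 days, and 322 and 330 at 2 days.

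The closest comparison set was the other 198 kept probes that differed at least 2-fold without heat but were left out because they also differed at least 2-fold with heat alone. At 30 days 59 of the 114 higher ones were again at least 2-fold higher (51.8%), and 37 of the 82 comparable lower ones at least 2-fold lower (45.1%), close to the 47.1% and 48.5% of the chosen probes. At 2 days 23 of the 114 higher ones were at least 2-fold lower (20.2%), and 28 of 83 lower ones at least 2-fold higher (33.7%). Among the chosen probes these shares were 11.8% and 9.09%. In the set left out, the sign at 30 days was the same as without heat in 94 of the 114 higher and 67 of the 84 lower probes. At 2 days it was the same in 24 and 22 of them. No test separates the 2 sets, and the euhydrated heat samples that enter these differences also defined them.

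**Figure D4:**
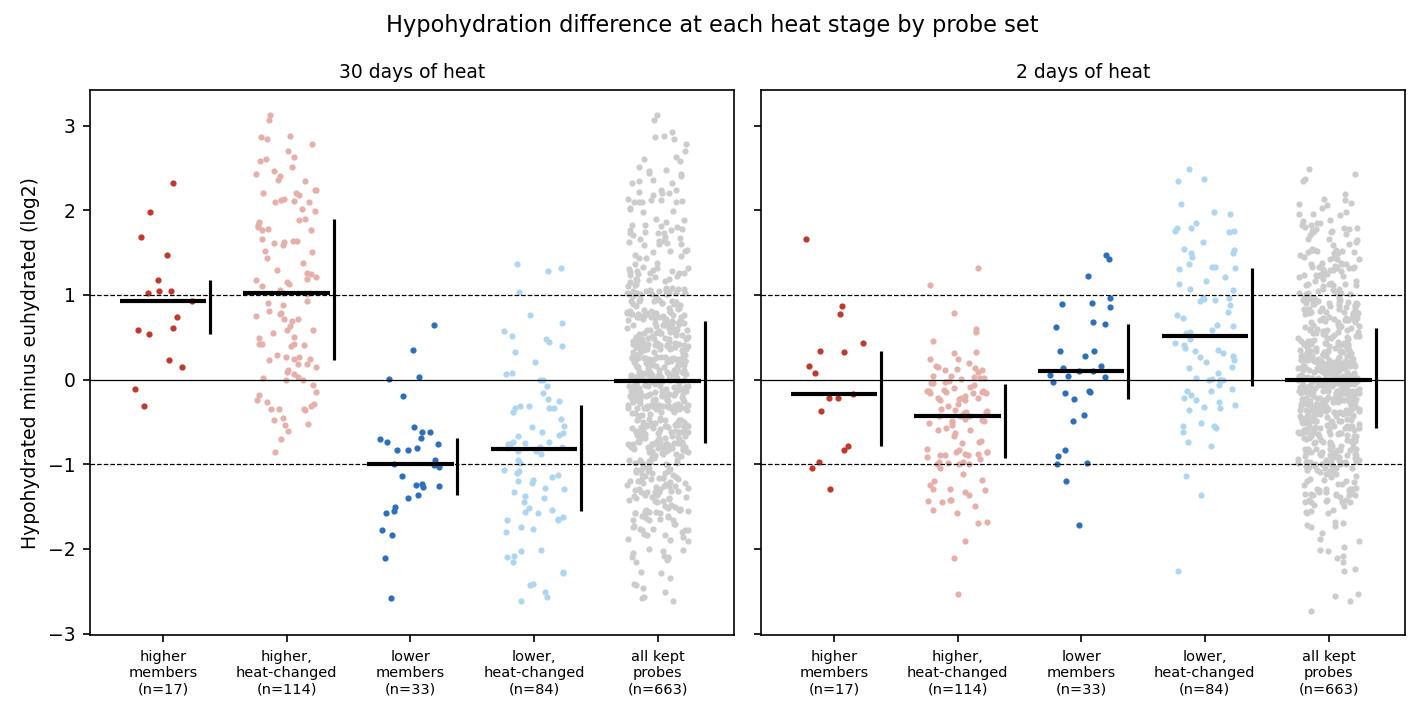
Log2 difference of hypohydrated minus euhydrated sample at 30 days (left) and 2 days of heat (right), for the chosen probes, for the probes left out because they also differed with heat, and for all kept probes. Points are probes, horizontal bars medians and vertical lines the range from the 25th to the 75th percentile. At 30 days the medians of the 17 higher and 33 lower probes are 0.93 and -0.99, and at 2 days -0.18 and 0.10.

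The samples were also ordered within each probe. By the rule, the unheated hypohydrated value lies beyond all 3 euhydrated values. The 30-day hypohydrated value lay above all 3 euhydrated values in 14 of the 17 higher probes, against 22.0% of all kept probes, and below all 3 in 25 of the 33 lower probes, against 21.1%. The 2-day hypohydrated value did so in 5 of 17 (all kept probes 21.6%) and 9 of 33 (all kept probes 21.7%). All 3 hypohydrated values were above all 3 euhydrated values in 4 of the 17 higher probes (all kept probes 2.71%) and below them in 8 of the 33 lower probes (3.47%). The rule's fold limits used all 3 euhydrated values and the unheated hypohydrated one, and its filter on the mean used the values of all 6 samples. None of these shares is therefore to be read against its background.

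Heat in hypohydrated animals was described by setting the heated hypohydrated samples beside the unheated one. These differences share that sample with the rule, which chose its extreme values, so a return toward the control is favoured by the choice. At 30 days 0 of the 17 higher probes differed at least 2-fold from the unheated hypohydrated sample. Of the 31 comparable lower probes 6 were higher and 1, RG203, was lower by that factor. Among all comparable kept probes the shares were 5.5% (higher) and 5.66% (lower). RG203 was under the floor in the 30-day hypohydrated sample, so its fold of 2.68 is a lower bound. At 2 days 8 of the 17 higher probes were at least 2-fold lower than in the unheated hypohydrated sample (all kept probes 25.5%). Of the lower probes 22 of 33 were at least 2-fold higher (all kept probes 23.2%). The 30-day hypohydrated value was nearer to the unheated hypohydrated value than to the control in 16 of the 17 higher probes (94.1%) and 25 of the 33 lower probes (75.8%), against 78.9% of all kept probes. For the 2-day hypohydrated value this was 6 of 17 (35.3%) and 9 of 33 (27.3%), against 50.5%.

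The differences with heat alone, which the rule had bounded to under 2-fold, are given as a description. The largest came close to that limit, at 1.98-fold at 2 days and 1.97-fold at 30 days. The 2-day euhydrated value was above the control in 14 of the 17 higher probes, with a median difference of 0.50 log2 units, and below it in 24 of the 33 lower probes, with a median of -0.29. At 30 days these counts were 11 of 17, with a median of 0.35, and 25 of 33, with a median of -0.28. Of all 663 kept probes 49.3% were above and 50.5% below the control at 2 days, and 47.7% and 50.5% at 30 days. The same control sample enters these differences and the hypohydration difference that chose the probes, and its part in these counts was not tested.

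Among the higher probes, RG287 had the largest difference without heat. Its normalized intensity was 0.148 in the control and 0.165 and 0.162 in the euhydrated samples with 2 and 30 days of heat. Under hypohydration the values were 0.636 (no heat), 0.206 (2 days) and 0.806 (30 days). RG287 was thus near the floor in every euhydrated sample and at 2 days with hypohydration. In the unheated hypohydrated sample it lay near the median of all kept probes (0.634), and in the 30-day one above it (0.633). It was 4.29-fold higher with hypohydration without heat, 1.25-fold higher at 2 days and 4.99-fold higher at 30 days, and in the deposited values 8.48-fold without heat and 7.06-fold at 30 days. The mean of RG287 over the 6 samples was 0.354, the lowest of the higher probes, where the filter required more than 0.338. With a 30-day hypohydrated value as low as its partner, RG287 would not have passed, so the filter favoured its 30-day difference. Its control value lay just above the floor of 0.143, and under a floor raised to the 25th percentile the no-heat difference was 1.45 log2 units, below the 1.70 of R235.

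R235 was next, with euhydrated values of 0.243, 0.344 and 0.469 and hypohydrated values of 0.788, 0.383 and 0.702 in the same order of stages. With hypohydration it was 1.70 log2 units higher without heat, 0.15 at 2 days and 0.58 at 30 days. Its 30-day euhydrated value also lay above the control, within the limit set by the rule.

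RG453 and RG471 were the higher probes, among those above the floor in all samples, whose smallest hypohydration difference over the 3 stages was largest. RG453 had 0.201, 0.375 and 0.257 in the euhydrated control, 2-day and 30-day samples, and 0.474, 0.686 and 0.530 in their hypohydrated partners. All 3 hypohydrated values of RG453 lay above all 3 euhydrated values, and it was 2.36-fold, 1.83-fold and 2.06-fold higher with hypohydration without heat, at 2 days and at 30 days. In the deposited values these folds were 4.51, 2.58 and 3.29, and normalized without the 2-day samples RG453 was 0.92 log2 units higher without heat and 0.78 at 30 days, under 2-fold. RG471 had 0.471, 0.883 and 0.599 in the euhydrated and 1.02, 1.19 and 1.14 in the hypohydrated samples, which again did not overlap. The other higher probes without overlap were RG287 and R246.

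RG121 and RG159 were higher with hypohydration without heat and at 30 days, and lower at 2 days. RG121 had euhydrated values of 0.315, 0.396 and 0.184 and hypohydrated values of 0.643, 0.191 and 0.592 (no heat, 2 days, 30 days). RG159 had euhydrated values of 0.620, 0.720 and 0.590 and hypohydrated values of 1.46, 0.295 and 1.21. In both, the 2-day hypohydrated sample was the low one of its state, 2.07-fold lower than its partner for RG121 and 2.44-fold lower for RG159. At 30 days RG121 was 3.21-fold and RG159 2.06-fold higher with hypohydration. In the deposited values both kept these directions, at 2 days with at least 3.37-fold for RG121, whose lower value was under that scale's floor of 0.094, and 3.53-fold for RG159. With the floor at the 25th percentile of normalized values the 2-day difference of RG121 was -0.77 log2 units, under 2-fold. With median scaling the no-heat differences were 0.81 and 0.51 log2 units.

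R321 and R368 were the higher probes whose sign turned at 30 days. R321 had 0.473 in the 30-day euhydrated and 0.380 in the 30-day hypohydrated sample, 1.24-fold lower, after a 2.13-fold higher value without heat. R368 had 0.403 and 0.374, 1.08-fold lower, after 2.90-fold higher without heat. On the deposited scale both were higher at 30 days, by 1.33-fold and 1.55-fold. R368 was also the probe counted as at least 2-fold higher at 2 days: its 2-day hypohydrated value was 0.452 and its euhydrated partner was under the floor, so it was at least 3.16-fold higher. With the floor at the 25th percentile that difference was 0.96 log2 units, under 2-fold.

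Among the lower probes above the floor in both unheated samples, RG038 and RG507 had the largest difference without heat. RG038 had euhydrated values of 0.985, 0.643 and 0.508 and hypohydrated values of 0.234, 0.343 and 0.306 (no heat, 2 days, 30 days). All 3 hypohydrated values were below all 3 euhydrated values, with folds of 4.22, 1.88 and 1.66. RG507 had euhydrated values of 0.761, 0.742 and 0.645, and hypohydrated values of 0.198, 0.665 and 0.220. RG507 was 3.85-fold lower without heat and 2.94-fold lower at 30 days, with a 2-day hypohydrated value close to its partner (1.12-fold lower). On the deposited scale RG038 was 1.89-fold and RG507 1.48-fold lower without heat, and at 30 days RG038 was 1.03-fold higher and RG507 1.65-fold lower.

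Another 3 lower probes, RG197, R550 and R027, were under the floor in the unheated hypohydrated sample, so their folds are bounds on the normalized scale only. On that scale RG197 was at least 5.76-fold, R550 at least 4.51-fold and R027 at least 3.45-fold lower than control values of 0.824, 0.645 and 0.494. In the deposited values, which lay above the floor of that scale, the folds were smaller, at 2.29, 1.66 and 1.37.

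Among the lower probes above the floor in all samples, RG310 and R257 were those whose smallest hypohydration difference over the 3 stages was largest. RG310 had euhydrated values of 1.03, 0.618 and 1.10 and hypohydrated values of 0.498, 0.188 and 0.417. RG310 was 2.07-fold lower without heat, 3.29-fold at 2 days and 2.63-fold at 30 days, and its hypohydrated values did not overlap the euhydrated ones. R257 had euhydrated values of 0.596, 0.676 and 0.725 and hypohydrated values of 0.235, 0.339 and 0.244, with folds of 2.54, 1.99 and 2.97. In the deposited values RG310 was 1.44-fold lower without heat, whereas R257 was 1.04-fold higher without heat and 2.35-fold and 1.72-fold lower at 2 and 30 days. RG310 and R550 were the 2 lower probes at least 2-fold lower at 2 days. The other lower probes whose hydration states did not overlap were RG038, R550, RG430, RG069, RG382 and RG165.

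R075 and R222 were lower without heat and higher at 30 days. R075 had 0.147 in the unheated hypohydrated sample against 0.529 in the control, and 0.552 in the 30-day hypohydrated sample against 0.352 in its partner. R222 had 0.208 against 0.604 without heat and 0.433 against 0.340 at 30 days. They were 3.61-fold and 2.91-fold lower without heat and 1.57-fold and 1.27-fold higher at 30 days. In the deposited values they were 1.13-fold and 1.05-fold lower without heat and 2.42-fold and 2.07-fold higher at 30 days. None of the lower probes was both at least 2-fold lower at 30 days and at least 2-fold higher at 2 days.

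The 2-fold limit separated probes with nearly equal differences. Among higher probes R220 lay just inside, with 0.876 against 0.433 (1.02 log2 units), and RG272 just outside, with 1.29 against 0.646 (a difference that rounds to 1.00 log2 units and lies under the limit). Among lower probes RG310 lay just inside at -1.05 log2 units and R315 just outside at -0.99. At 30 days, R220 was 0.15 and RG272 1.46 log2 units higher, and RG310 and R315 had differences of -1.39 and -1.22.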

How the data were processed

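The labels' protocols state that total RNA was copied into 32P-labelled cDNA with primers from Clontech. The authors deposited 1 table of processed intensity values, 884 probes by 6 samples. For array design, scanner, background correction, normalization, centring and averaging, the sources used here give nothing. Since all values were positive with a long upper tail, they were taken as intensities on a linear scale.

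Columns were quantile-normalized (ties averaged) in Python 3.11.15 with numpy 2.4.6, pandas 2.3.3 and scipy 1.17.1. Probes were kept if their mean exceeded the 25th percentile of probe means (0.338). Values were then set to a floor at the 10th percentile (0.143), and log2 differences were taken. A pair of samples is comparable for a probe if at least 1 value is above the floor. No statistical test was run, since each group holds 1 sample. Named probes are up to 2 per direction for each pattern (1 at the limit), ranked among values above the floor. Other probes, named to complete a small count, for a bound at the floor or in the closing part, were chosen after their values were seen. Members and patterns were chosen with earlier results of these data known. The rule was run on simulated columns made from the same profile with noise and swapped values. Those columns kept the same distribution, unlike the deposited ones, so that run cannot speak to the scaling between samples. Alternatives changed the normalization, floor, filter and fold limits.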

Additional observations from a re-analysis of the deposited data

Results flagged for a closer look

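In 5 probes the hypohydration difference at 2 days of heat was at least 2-fold in the direction opposite to that without heat. They were 2 of the 17 higher probes (11.8%), where 12% of comparable kept probes were at least 2-fold lower. The others were 3 of the 33 lower probes (9.09%), where 15.7% were at least 2-fold higher. Neither share exceeded that of all kept probes. The difference between stages was not tested, since each stage holds 1 sample a state. At 2 days the log2 difference was -1.05 for RG121 and -1.29 for RG159, both higher without heat. It was 1.22 for R027, 1.42 for RG058 and 1.47 for R375, all lower without heat. R027 and RG058 had like values throughout: 2-day hypohydrated intensities of 1.19 and 1.15 against 0.510 and 0.429 in their euhydrated partners, and values under or just above the floor in the unheated hypohydrated sample. With 2-day hypohydrated values as low as their partners, neither would have passed the filter on the mean. A higher value there, and with it this likeness, was therefore favoured by the choice of probes. On the deposited scale the 2-day differences were -1.82 log2 units for RG159, 1.43 for R027, 1.74 for RG058 and 2.22 for R375, and that of RG121 was a bound of -1.75, with its lower value under the floor. The no-heat differences on that scale were -0.46 for R027, -0.02 for RG058 and 0.03 for R375, so the 3 lower probes had little or no difference without heat there. With the floor at the 25th percentile RG121 was at -0.77 at 2 days, under 2-fold. Over the 50 probes, 3 higher and 7 lower ones were at least 2-fold opposite at 2 days in the deposited values. On that scale 16.5% of comparable kept probes were at least 2-fold lower at 2 days and 22.4% higher.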

How the results depend on the processing

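The scaling between samples decides how many probes are chosen in each direction, and each alternative below chose its probes afresh. Counts are given as higher and lower probes, then as those past 2-fold again, with unchanged sign, at 30 days and at 2 days, beside 17 and 33, 8 and 16, and 1 and 2 in the report. With the values as deposited they were 29 and 2, then 11 and 1, then 8 and 0. Of the report's comparable kept probes 29.7% were at least 2-fold higher there at 30 days and 7.39% lower. At 2 days these shares were 22.4% and 16.5%. With median scaling the counts were 5 and 30, then 2 and 22, then 3 and 5. The shares were 15.1% and 25.6% at 30 days, and 21.2% and 17.7% at 2 days. For the alternatives that follow no such shares are given, so their counts are a description only. With the floor at the 25th percentile the counts were 19 and 32, then 9 and 12, then 0 and 2. The 5th percentile left all but the 30-day lower count (18) as reported. Without a filter on the mean they were 27 and 46, then 12 and 21, then 1 and 7. With the mean above the 50th percentile they were 10 and 16, then 5 and 8, then 0 and 1. With probes above the floor in all 6 samples they were 16 and 26, then 8 and 11, then 0 and 1. With limits of 3-fold for hypohydration and 1.5-fold for heat they were 1 and 3, then 1 and 3, then 0 and 0. The last 2 alternatives were chosen after seeing the data. Without the 2-day limit in the rule they were 80 and 92, then 58 and 52, then 2 and 3, and by construction all 50 probes stayed. With both 2-day samples also left out of the normalization, 84 higher and 76 lower probes were chosen, 52 and 38 of them past 2-fold again at 30 days, and 12 and 24 are among the 50. Of 51 differences of named probes, 20 crossed 2-fold or turned a sign under 2-fold on the deposited scale, and R257 without heat turned from past 2-fold to 0.054 log2 units. With median scaling 14 of 51 did so, with the floor at the 25th percentile 2, and without the 2-day samples 8 of 34. The causes were not tested.

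No paired analysis was possible because each group holds 1 sample. For the same reason no replicate was left out. Signal over background is unknown.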
